A study of Mus musculus with 12 samples.

Results

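The genes followed here across the cell classes of mouse mammary tumours were the chemokines Cxcl9, Cxcl10 and Cxcl16 and the receptors Cxcr3 and Cxcr6. They were taken by name, as ligands of Cxcr3 that are induced by interferon gamma, the receptor itself, and the separate pair formed by Cxcl16 and Cxcr6. All 5 were measured, among 19369 genes in the tables of the whole tumours and 18574 in those of the leukocytes. Tumours came from 5 clones, each started from a single cell of the 4T1 line, a triple-negative mammary carcinoma of BALB/c mice, and from the parental 4T1 line itself. The clones are called E, then EM1, EM2 and EM3, and M, and lists of 6 values without names keep this order, with the parental tumour last. Each was implanted in the mammary fat pad of female BALB/c mice aged 9 to 11 weeks, hosts with their own immune system. The design states that the clones span epithelial, intermediate and mesenchymal states, and each clone is a single clone with 1 tumour. Each tumour gave a Total library and a CD45 library of leukocytes taken with magnetic beads, 12 libraries in all. With 1 tumour per group no test between clones was possible, and differences between tumours are given as values whose 95% intervals cover counting error only.

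Cxcl9 and Cxcl10 are secreted chemokines that bind Cxcr3, a receptor found on activated T cells and NK cells, and their genes are known targets of interferon gamma. Cxcl16 is made as a membrane protein that can be cut from the cell surface by Adam10 and Adam17, and it binds Cxcr6, a receptor of effector and tissue-resident T cells. In tumours, macrophages and dendritic cells are known sources of these ligands, and CD8 T cells are known receivers.

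In the annotation of GRCm38, Cxcl9 (chromosome 5, 92321347 to 92328079, minus strand) and Cxcl10 (chromosome 5, 92346638 to 92348889, minus strand) are neighbours, with 18559 bases between the end of the first and the start of the second in genome order. Cxcl16 lies on chromosome 11 (70453983 to 70459984, minus strand), Cxcr6 on chromosome 9 (123806475 to 123811760, plus strand) and Cxcr3 on chromosome X (101731535 to 101734269, minus strand). All 5 are protein-coding genes. The 250 bases before each start are shown for Cxcl9 and Cxcl10, neighbours whose leading cell class differed in 4 of 6 tumours. Both are RefSeq sequences of GRCm38.p6, read 5′ to 3′ on the minus strand, at chr5:92328080-92328329 for Cxcl9 and chr5:92348890-92349139 for Cxcl10. Promoter sequences were matched for 4 of the 5 genes.
Cxcl9: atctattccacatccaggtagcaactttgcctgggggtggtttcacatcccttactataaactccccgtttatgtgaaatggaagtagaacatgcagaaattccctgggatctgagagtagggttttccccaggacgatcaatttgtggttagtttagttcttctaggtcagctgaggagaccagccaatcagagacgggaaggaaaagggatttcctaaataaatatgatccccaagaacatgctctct
Cxcl10: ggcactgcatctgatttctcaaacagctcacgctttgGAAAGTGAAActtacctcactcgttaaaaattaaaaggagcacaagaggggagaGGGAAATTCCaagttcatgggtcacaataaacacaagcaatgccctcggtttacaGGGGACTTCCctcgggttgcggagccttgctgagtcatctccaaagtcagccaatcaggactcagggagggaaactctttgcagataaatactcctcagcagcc
Capitals mark the letters found by a search on both strands for the interferon-stimulated response element (GAAA and GAAA with any 2 bases between), the gamma-activated sequence (TTCNNNGAA) and the kappaB motif (GGG and TTCC with any 3 bases between). The Cxcl10 window held 1 response element, at -213 to -204 from the start, and 2 kappaB matches, at -159 to -150 and -104 to -95, with no overlap between them. Of 32851 promoter windows of the same length, 2.98% held the response element, 7.02% the gamma-activated sequence and 4.65% the kappaB motif. None of the 3 letter patterns lay in the windows of Cxcl9, Cxcr3 or Cxcr6.

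The libraries held 28083101 to 122055131 UMIs, counts of unique molecular identifiers that each mark 1 captured RNA molecule, over 6709 to 13467 cells. After 2433 cells called doublets were left out, 113179 of 115612 cells remained. The authors' classes carried their defining markers. Macrophages of the CD45 libraries held 8099 to 13529 CPM of the 5 macrophage markers, and T cells 3225 to 4250 CPM of the 4 T cell markers, where CPM is the count of a gene scaled to 1000000 UMIs of the class. The class labelled Cd44- Cd4+ went partly against its name: its 2 CD8 markers summed to 276 to 686 CPM and Cd4 itself to 194 to 403 CPM. In tumour M these values were 686 and 194 CPM. The class labelled B in the Total libraries also carried 1584 to 6674 CPM of the 3 plasmacytoid dendritic cell markers. Droplet barcodes showed 4 sets of libraries, E with EM3, EM1 with EM2, M alone and parental alone. Libraries of a set shared 12.2% to 19.1% of the smaller library's droplet barcodes, and other pairs of libraries 0.686% to 1.91%. No 2 libraries of a set shared a full barcode, while libraries of different sets did. Clone and barcode set cannot be told apart for M and for the parental line.

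Macrophages held most Cxcl9 UMIs in every Total library, although endothelial cells had a higher CPM in E, EM2 and the parental tumour. The macrophage level differed more between tumours than that of almost any other gene of these cells. In macrophages of the CD45 libraries it stood at 180 CPM in E and 193 in EM3, 549 in EM1 and 482 in EM2, 30.6 in M and 42.1 in the parental line. EM1 and EM2 were high, E and EM3 were intermediate, and M and the parental tumour were low, with no overlap of the intervals between these 3 levels. The Total libraries, made from other cells of the same tumours, gave 159, 517, 396, 184, 44.4 and 20.7 CPM, in the order of the clones with the parental tumour last. M lay below the parental tumour in the CD45 libraries and above it in the Total libraries, so the order of the lowest pair was not settled. On the scale of CPM plus 10, the highest tumour exceeded the lowest 13.8-fold, a wider range than that of 99.9% of 4355 genes that reached 50 CPM in macrophages. All 3 chemokines ranged at least 2-fold in macrophages, where 10.2% of those 4355 genes did.

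The same levels sorted by barcode set. The ratio of E to EM3 was 0.935 and that of EM1 to EM2 was 1.14, on the CPM plus 10 scale in the CD45 libraries. Of the 445 macrophage genes that ranged at least 2-fold, 54.8% also differed by less than 1.5-fold within both pairs. The part of the barcode set in the difference was not tested. The share of macrophages with a Cxcl9 UMI followed the level, at 16.6% in E and 17.7% in EM3, 36.6% in EM1 and 26.8% in EM2, 3.35% in M and 2.65% in the parental line. B cells of the same libraries, which should lack the gene, gave 0% to 3.78%, at median depths of 888 to 1486 UMIs against 5120 to 7662 in macrophages. After each cell was thinned to 1000 UMIs, macrophages gave 7.56%, 19.1%, 15.3%, 6.91%, 1.08% and 1.32% and B cells 0% to 3.66%. The macrophage shares of M and the parental tumour thus lay within the range of B cells over the 6 tumours, and B cell CPM reached 48.9 in EM2. Within the same tumour, macrophage CPM lay above that of T cells, at 0.924 in M and 4.31 in the parental line, and of granulocytes, at 3.89 and 4.90, beyond both intervals. B cells of the parental tumour held 8.04 CPM (exact 95% interval 0.974 to 29.0), also below macrophages, and the 43 B cells of M held no UMI, with an upper limit of 63.6 CPM.

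**Figure D1:**
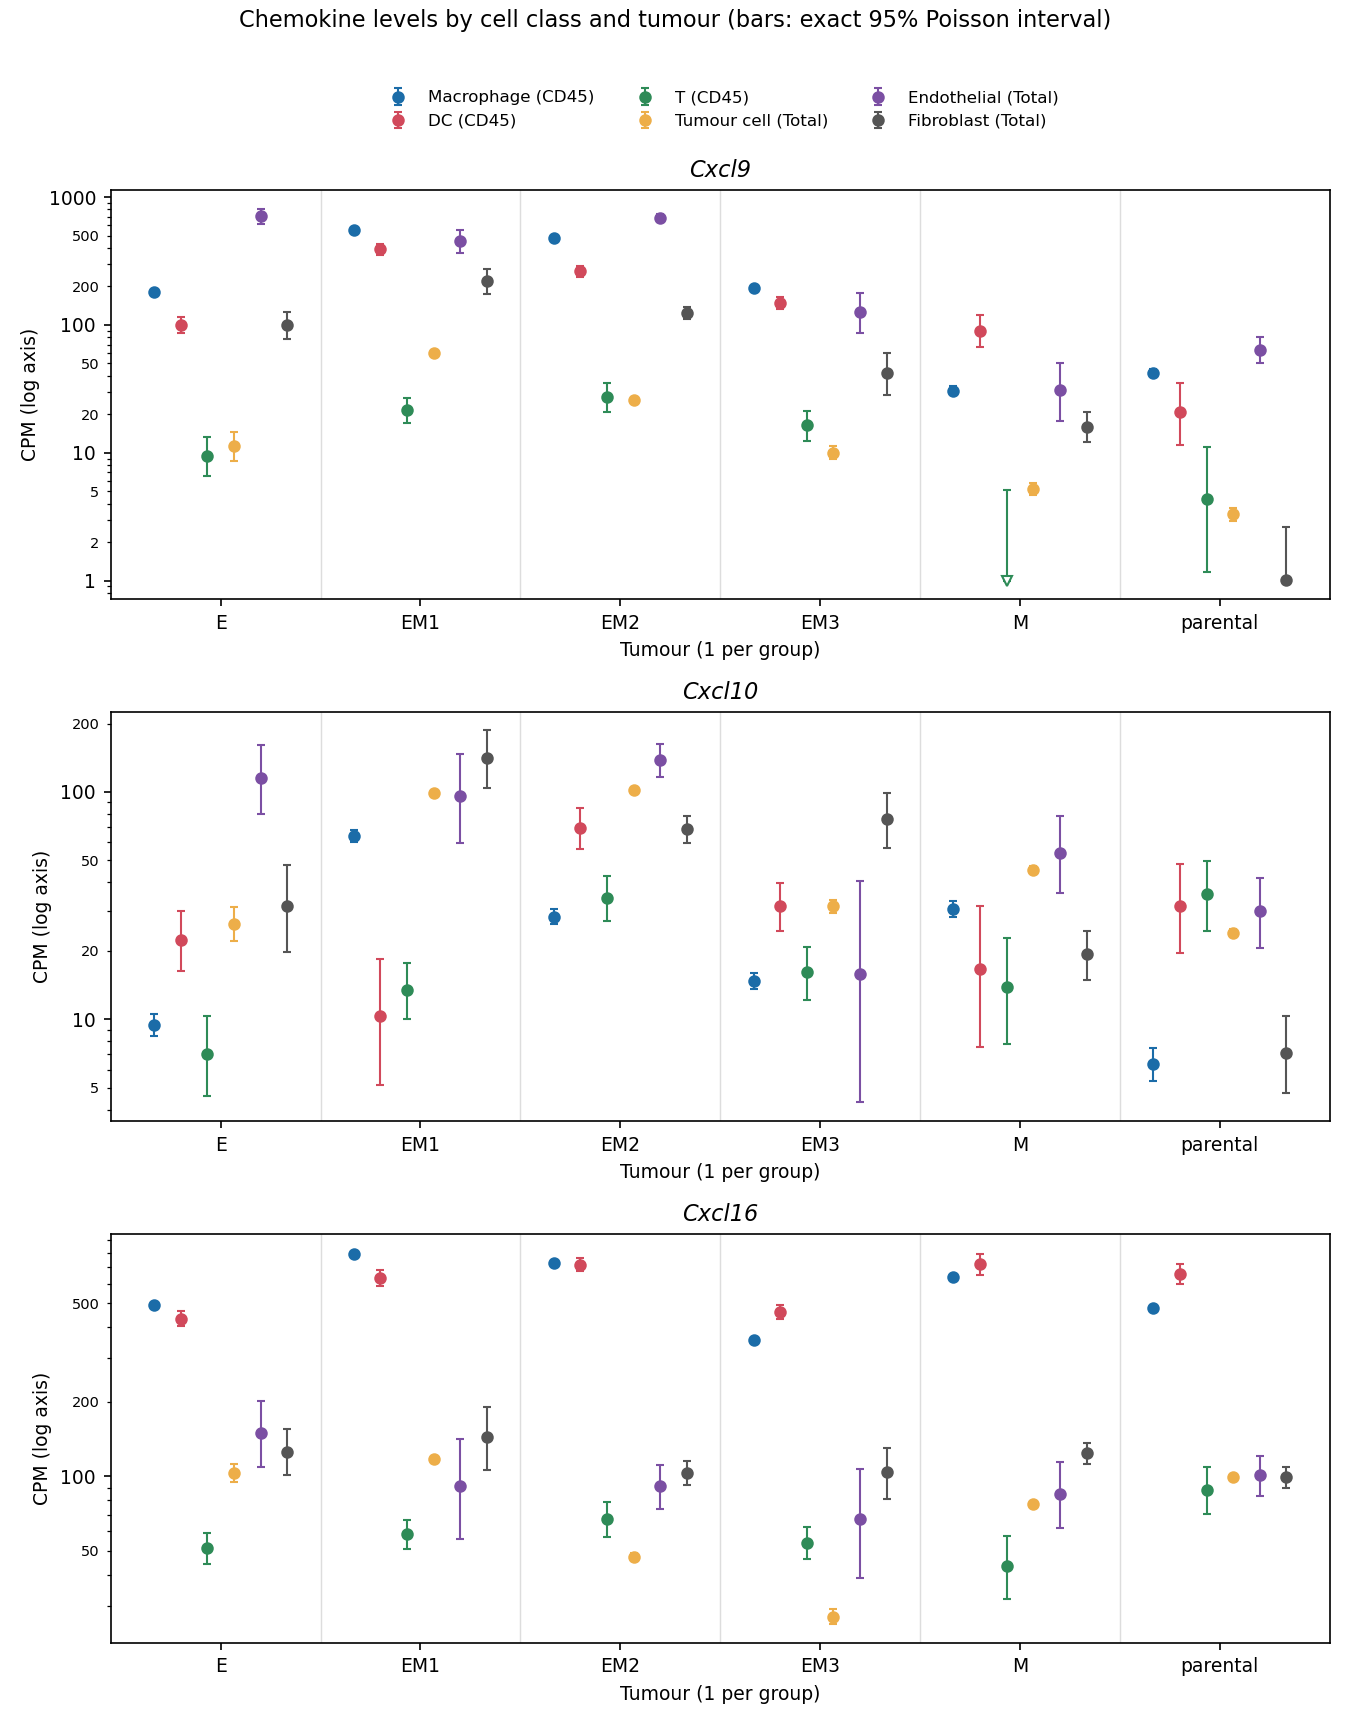
CPM of Cxcl9, Cxcl10 and Cxcl16 on log axes, for 6 cell classes (colours; macrophages, DC and T cells from CD45 libraries, the others from Total libraries) in each of 6 tumours, with exact 95% Poisson intervals; open triangles mark values under 1 CPM, where intervals are cut. Macrophage Cxcl9 runs from 30.6 CPM in M to 549 in EM1, endothelial Cxcl9 reaches 710 in E, and Cxcl16 stays above 350 CPM in macrophages and dendritic cells of all 6 tumours.

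Dendritic cells (DC) carried Cxcl9 in the same tumours, at 99.7 CPM in E and 149 in EM3, 389 in EM1 and 262 in EM2, 90.1 in M and 20.98 in the parental line. They lay below macrophages beyond both counting intervals in 5 of 6 tumours and above them in M. In M, 1 of the 94 cells gave 44.9% of the DC's 49 UMIs, and without it the level was 50.3 CPM. Over the 6 tumours, with the tumour as a block, the log2 difference of DC from macrophages was -0.46 (SE 0.28, adjusted p = 0.196, edgeR), where 47.5% of 10738 genes passed. Without M it was -0.77 (adjusted p = 9.54e-05). The classes compared in all such tests are the authors' own, made from the expression of these cells, so that p-values are too small to an unknown degree. Macrophage markers summed in DC to 7.4% of the macrophage level in M and to 24.2% to 48.9% in the other 5 tumours, and their part in DC Cxcl9 was not tested. Among DC, cells with a UMI of Xcr1 or Clec9a, genes of cross-presenting DC, held 169 CPM of Cxcl9 in E and 134 in M, against 56.7 and 42.4 in the other DC of those tumours. In EM1, EM2 and EM3 the values were 285, 237 and 150 CPM against 434, 279 and 148, and in the parental tumour 30.4 against 17.9. The Total libraries gave 213, 117, 361, 170 and 234 CPM against 39.2, 354, 220, 93.7 and 2.55 in E, EM1, EM2, EM3 and M, and no UMI on either side in the parental tumour. Single cells weighed heavily here. In EM1 1 cell held 25 of the 26 UMIs of the DC without a marker UMI, and without the top cell of each side the Total values were 101, 92.5, 294, 96.1 and 84.7 CPM against 23.2, 14.7, 107, 59.0 and 0. The CD45 values then became 139, 241, 197, 118, 57.6 and 19.1 CPM against 42.1, 329, 234, 119, 0 and 0 in all 6 tumours. Only E and M kept the DC with an Xcr1 or Clec9a UMI higher in both kinds of library, with and without these cells. In the Total libraries those DC were deeper, at medians of 5990 against 3763 UMIs in E and 7294 against 5553 in M. A split there by a UMI of Ccr7 or Fscn1 gave 187, 244, 250, 152 and 118 CPM against 43.5, 90.3, 395, 119 and 0 in E, EM1, EM2, EM3 and M. Without the top cell of each side the values were 90.5, 82.1, 207, 87.2 and 43.2 CPM against 9.02, 45.7, 171, 35.25 and 0. The part of depth in these splits was not tested.

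Endothelial cells were a second site of Cxcl9. In the Total libraries they held 710 CPM in E and 126 in EM3, 449 in EM1 and 691 in EM2, 30.9 in M and 64.0 in the parental line, from 37 to 147 cells each. Of the 5 genes, 4 ranged at least 2-fold in endothelial cells, all but Cxcr3, where 31.3% of 5879 genes did. This was 447%, 174% and 309% of the macrophage level in E, EM2 and the parental tumour, and 68.5% to 86.9% of it in the other 3. Macrophage markers in the same endothelial cells reached 0.774% to 9.21% of the macrophage level, and the 3 endothelial markers summed to 3695 to 4312 CPM. Between 18.2% and 62.5% of the endothelial UMIs came from 1 cell, and without that cell the level was 454 CPM in E and 90.9 in EM3, 330 in EM1 and 572 in EM2, 11.7 in M and 51.0 in the parental line. E, EM2 and the parental tumour stayed above the macrophage level of the same libraries, and M lay below it, at 11.7 against 44.4 CPM. Fibroblasts held 100 CPM in E and 42.0 in EM3, 220 in EM1 and 124 in EM2, 16 in M and 1.02 in the parental line. In EM1, 1 of the 52 fibroblasts gave 50.7% of these UMIs, and without the top cell the levels were 67.8, 111, 99.2, 27.1, 11.0 and 0.763 CPM in the order of the clones. Endothelial cells and fibroblasts together exceeded tumour cells in all 6 tumours, with a log2 difference of 3.19 (SE 0.32, adjusted p = 3.64e-05), as did macrophages, with 3.82 (SE 0.24, adjusted p = 2.56e-07). In these 2 comparisons 58.6% of 11828 genes and 75.4% of 13968 genes passed. Tumour cells themselves held 11.3, 60.1, 25.9, 9.98, 5.23 and 3.31 CPM in E, EM1, EM2, EM3, M and the parental tumour, which was 5.41% to 15.98% of the macrophage level, while macrophage markers there reached 0.287% to 3.28%.

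Tumour cells, which made up 7.19% (E) to 56.1% (parental) of the cells of a Total library, also held part of the Cxcl9 of a tumour. Macrophages gave 85% of all Cxcl9 UMIs in the Total library of E and 92.7% in EM3, 64% in EM1 and 74.7% in EM2, 70.3% in M and 51.9% in the parental line. Tumour cells gave 1.51%, 30.5%, 12.3%, 3.8%, 19.5% and 35.2% in the order of the clones. Macrophages were the leading class in all 6 tumours. Fewer cells of a class and less RNA per cell are both contained in these shares, which also depend on how many cells of each class survived dissociation.

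Cxcl10, the other Cxcr3 ligand among the 5 genes, had most of its UMIs in tumour cells in 4 of 6 tumours. Tumour cells held 26.2 CPM in E and 31.4 in EM3, 98.6 in EM1 and 102 in EM2, 45.6 in M and 23.9 in the parental line, with UMIs in 6.92%, 17%, 20.4%, 10%, 15.2% and 7.4% of them. EM1 and EM2 were about equal and highest. The shares of cells are given without thinning to 1 depth. In the same libraries the class of T and NK cells held 7.44 to 27.2 CPM of Cxcl10, the class labelled B 0 to 14.7 and granulocytes 13.6 to 62.4. Tumour cell Cxcl10 ranged 3.31-fold on the CPM plus 10 scale, where 25.1% of 5830 genes of these cells ranged at least 2-fold. Macrophages of the same libraries held 17.6, 61.9, 42.0, 23.9, 44.5 and 14.2 CPM, below tumour cells in all 6 tumours and beyond both intervals in 5. The log2 difference of macrophages from tumour cells was -0.26 (SE 0.16, adjusted p = 0.159), and -0.46 (adjusted p = 0.03) with no low-count filter. In EM1, 1 macrophage carried 172 of the 407 UMIs, and without it the level was 35.8 CPM.

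Of all Cxcl10 UMIs in the Total libraries, tumour cells held 20.6% in E and 46% in EM3, 82.5% in EM1 and 79.2% in EM2, 66.5% in M and 76.7% in the parental line. Macrophages held 55.1% in E and 46.5% in EM3. These shares also contain how many cells a class had and how much RNA per cell. Tumour cells made up 7.19% of the cells in E and 23.1% in EM3, 43.2% in EM1 and 33.9% in EM2, 35.5% in M and 56.1% in the parental line. In the CD45 libraries, the class labelled other myeloid, whose macrophage markers matched those of macrophages at 83.4% to 118%, held 21.1, 171, 113, 11.6, 95.5 and 15.8 CPM. This exceeded macrophages in all tumours but EM3. Endothelial cells of the Total libraries held 116 CPM of Cxcl10 in E and 15.8 in EM3, 96.3 in EM1 and 138 in EM2, 54.0 in M and 29.8 in the parental line, from the same few cells as above. A level of 1715 CPM in the Trdc+ double-negative T cells of EM2 rested on 24 cells, of which 1 gave 38 of 51 UMIs. Cxcl10 UMIs were concentrated in general, and 73.5% to 90.4% of those in macrophages of the Total libraries came from 1% of the cells. In the CD45 libraries, 0.145% to 2.5% of macrophages held UMIs of both Cxcl9 and Cxcl10, against 2.5% to 34% with Cxcl9 alone.

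**Figure D2:**
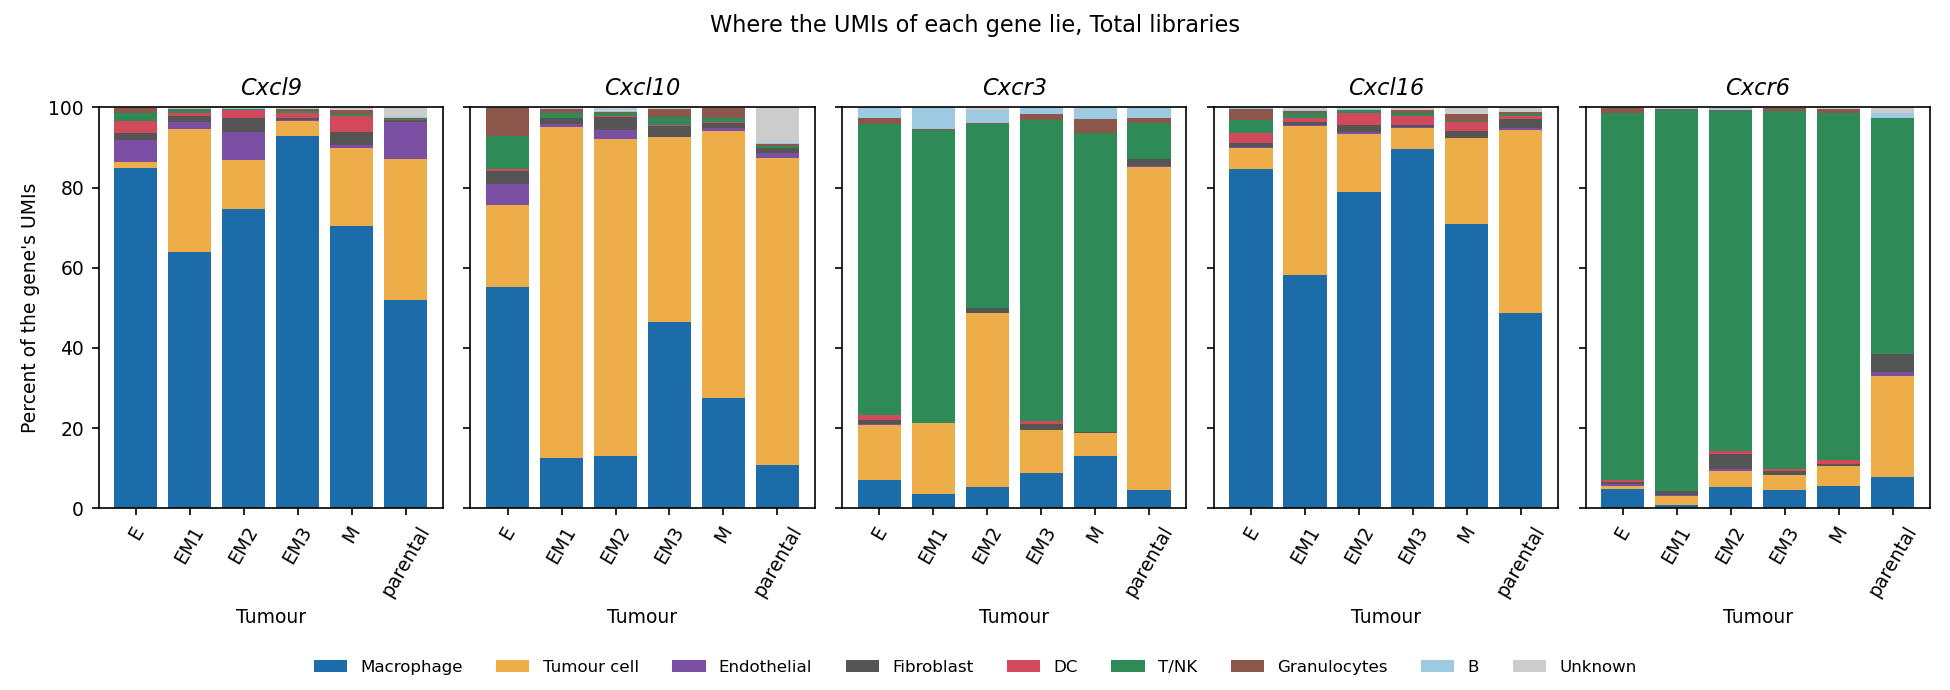
Percent of each gene's UMIs that lie in each cell class (colours), for the 6 Total libraries. Macrophages hold the largest share of Cxcl9 and Cxcl16 in all 6, tumour cells most Cxcl10 in EM1, EM2, M and the parental tumour, and the class of T and NK cells most Cxcr6 in all 6.

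In macrophages and DC of the CD45 libraries, Cxcl16 had the smallest range of the 3 ligands among tumours. Macrophages of the CD45 libraries held 491 CPM in E and 356 in EM3, 790 in EM1 and 728 in EM2, 635 in M and 480 in the parental line. EM1 was highest and EM3 lowest, and the range was 2.18-fold on the CPM plus 10 scale. DC held 433, 632, 716, 460, 717 and 657 CPM, a 1.64-fold range. In tumour cells the range of Cxcl16 was 3.42-fold, against 3.31-fold for Cxcl10. No difference between macrophages and DC passed the test, with a log2 difference of DC from macrophages of 0.04 (SE 0.13, adjusted p = 0.848). UMIs were present in 73.3% to 88.0% of macrophages and in 70.5% to 84.0% of DC, against 8.02% to 12.8% of B cells. These shares are given without thinning to a common depth, and macrophages were much deeper than B cells.

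The class labelled other myeloid was about as high in Cxcl16, at 534, 705, 621, 352, 655 and 434 CPM in the order of the clones. T cells held 43.4 to 88.3 CPM, granulocytes 65.9 to 104 and tumour cells 27.2 to 117. Macrophages exceeded tumour cells in all 6 tumours by a log2 difference of 3.25 (SE 0.25, adjusted p = 9.52e-07), and fibroblasts with endothelial cells exceeded them by 1.00 (SE 0.22, adjusted p = 0.00413), higher in 5 of 6 tumours. Cd44+ Cd4+ T cells exceeded the class labelled Cd44- Cd4+ by 0.51 (SE 0.17, adjusted p = 0.0199), higher in 6 of 6 tumours, although the intervals overlapped in each, and without the tumour block it was 0.27 (adjusted p = 0.440). Of 11 alternatives 5 left it past the test, and it did not pass in DESeq2 (adjusted p = 0.118), in cells of at least 650 genes (0.0896) or without EM1 (0.0606), EM2 (0.0816) or the parental tumour (0.0581) either. Macrophages held 84.7% of Cxcl16 UMIs in E and 89.5% in EM3, 58.2% in EM1 and 78.9% in EM2, 71% in M and 48.7% in the parental line, where tumour cells held 45.6%. In macrophages, Adam10 stood at 154 to 210 CPM and Adam17 at 188 to 276 CPM.

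Cxcr3 marked T cells, and among them the Lef1+ Cd8+ class most. That class, named for a transcription factor of naive and memory-like T cells, held 435 CPM in E and 504 in EM3, 287 in EM1 and 370 in EM2, 664 in M and 351 in the parental line. Gzmb+ Cd8+ T cells, named for the cytotoxic protease granzyme B, held 11.9, 114, 142, 15.5 and 360 CPM in E, EM1, EM2, EM3 and M. In the parental tumour this class had 8 cells and was left out of the test. The Gzmb+ class lay below the Lef1+ class beyond both intervals in all 5 tumours tested, with a log2 difference of -2.64 (SE 0.46, adjusted p = 0.000726), where 16.4% of 6310 genes passed. The gap itself was widest in E and EM3, which form 1 barcode set, where only 2.14% and 2.57% of Gzmb+ Cd8+ T cells had a Cxcr3 UMI. In M, 30.2% of 63 cells did (exact 95% interval 19.2% to 43.0%).

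Among CD4 T cells, Cxcr3 was highest in the Cd44+ class, at 202 CPM in E and 253 in EM3, 204 in EM1 and 230 in EM2, 226 in M and 145 in the parental line. Foxp3+ Cd4+ T cells, the regulatory T cells, held 84.4, 138, 147, 137, 102 and 84.2 CPM, lower in 6 of 6 tumours and beyond both intervals in 3. Their log2 difference from the Cd44+ class was -0.85 (SE 0.13, adjusted p = 4.33e-06), where 23.6% of 6144 genes passed. The class labelled Cd44- Cd4+ held 50.03, 68.9, 33.1, 87.2, 387 and 16.8 CPM. It was low in 5 tumours and high in M, where it rested on 41 cells and carried the most CD8 marker RNA. Over the 6 tumours Cd44+ exceeded it by 1.85 (SE 0.22, adjusted p = 2.32e-08), where 28.6% of 7145 genes passed, and in 5 of 6 tumours.

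The order of the classes was therefore Lef1+ Cd8+, then Cd44+ Cd4+, in 5 of 6 tumours. In M, the class labelled Cd44- Cd4+ and Gzmb+ Cd8+ T cells, at 387 and 360 CPM, stood between them. CD8 T cells as a whole were the Gzmb+ and Lef1+ Cd8+ classes together, and CD4 T cells the Cd44+, Cd44- and Foxp3+ Cd4+ classes together. The class labelled Mki67+ Cd8/Cd4 was in neither. CD8 T cells exceeded CD4 T cells by 0.73 (SE 0.22, adjusted p = 0.0366), where 19.2% of 8839 genes passed. This difference was positive in 5 of 6 tumours, and in E the CD8 level of 105 CPM lay under the CD4 level of 113. Its adjusted p ranged from 0.000214 to 0.125 over the alternatives. It did not pass without EM2 (0.125), without M (0.0837), without the parental tumour (0.0579) or without the tumour block (0.110). NK cells held 32.9 to 75.3 CPM and did not pass against Gzmb+ Cd8+ T cells over 5 tumours, with a log2 difference of -0.59 (SE 0.52, adjusted p = 0.473), where 23.0% of 4232 genes passed.

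**Figure D3:**
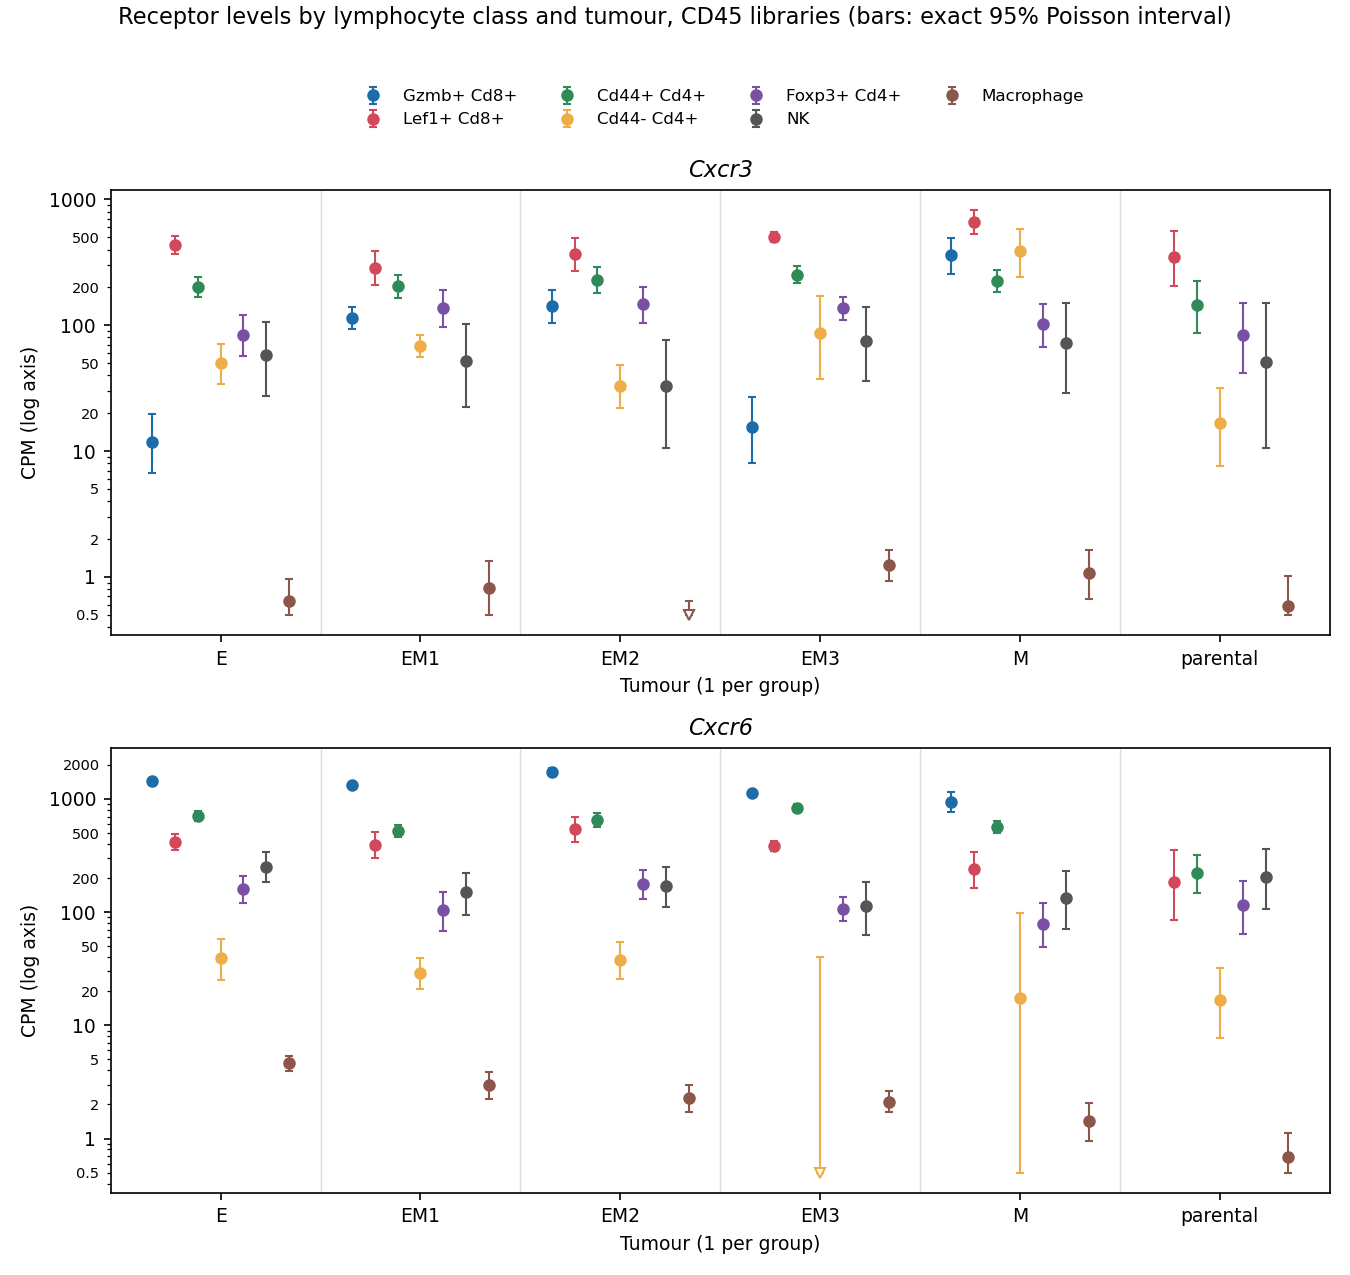
CPM of Cxcr3 and Cxcr6 on log axes, for 7 classes (colours) of the CD45 libraries in each of 6 tumours, with exact 95% Poisson intervals; open triangles mark values under 0.5 CPM, where intervals are cut, and classes under 10 cells are not drawn. Lef1+ Cd8+ T cells lead in Cxcr3, Gzmb+ Cd8+ T cells lead in Cxcr6 in the 5 tumours where they are drawn, and macrophages lie at 0.326 to 4.61 CPM.

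Over all T cells, Cxcr3 stood at 103 CPM in E and 225 in EM3, 112 in EM1 and 122 in EM2, 264 in M and 65.7 in the parental line. The class labelled Cd44- Cd4+ made up 541 of the 804 T cells of the parental tumour, 41 of the 685 of M and 62 of the 1724 of EM3. It made up 406 of 1804 in E, 1436 of 3029 in EM1 and 864 of 1828 in EM2. T cell Cxcr3 was lower in E than in EM1 and EM2. Gzmb+ Cd8+ T cells were 561 of the T cells of E, at 11.9 CPM of Cxcr3. They were 688 of those of EM1, at 114 CPM, and 252 of those of EM2, at 142 CPM. EM3 had 311 of them at 15.5 CPM, M had 63 at 360 CPM and the parental tumour had 8. The part of the makeup of the T cells in the levels over all T cells was not tested. In the Total libraries the class of T and NK cells held 74.1, 86.1, 102, 119, 125 and 43.4 CPM. It held most Cxcr3 UMIs in 4 tumours, 45.8% in EM2 and 8.85% in the parental tumour. Tumour cells of the parental tumour, 56.1% of the cells of its Total library, held 80.6% at only 4.89 CPM. The class labelled B in the Total libraries held 22.0 to 81.0 CPM, together with its plasmacytoid markers, while B cells of the CD45 libraries held 0 to 45.6 CPM.

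Cxcr6 showed the opposite order among CD8 T cells. Gzmb+ Cd8+ T cells held 1438 CPM in E and 1127 in EM3, 1319 in EM1 and 1731 in EM2, and 948 in M, and the 8 cells of the parental tumour 2426. Lef1+ Cd8+ T cells held 415, 394, 539, 385, 240 and 186 CPM. The Gzmb+ class lay above the Lef1+ class beyond both intervals in all 5 tumours tested. Its log2 difference was 1.73 (SE 0.11, adjusted p = 1.71e-08), where 16.4% of 6310 genes passed. A UMI was found in 57.1% to 88.1% of Gzmb+ Cd8+ T cells and in 19.4% to 37% of Lef1+ Cd8+ T cells, and after thinning to 1000 UMIs in 50.9% to 83.3% against 15.4% to 27.1%. B cells gave 0% to 3.3%.

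The Trdc+ double-negative T cells, which carry a gamma-delta T cell receptor gene, were as high, at 1422, 2565, 1480 and 1693 CPM in E, EM1, EM2 and M, from 18 to 25 cells each. Among CD4 T cells, the Cd44+ class held 705, 525, 656, 829, 566 and 222 CPM in E, EM1, EM2, EM3, M and the parental tumour. It exceeded the class labelled Cd44- Cd4+, at 0 to 39.1 CPM, by 4.29 (SE 0.15, adjusted p = 1.38e-21), and Foxp3+ Cd4+ T cells, at 79.1 to 177 CPM, by 2.30 on the log2 scale (Foxp3+ minus Cd44+, -2.30, SE 0.15, adjusted p = 2.97e-13). CD8 T cells exceeded CD4 T cells by 1.98 (SE 0.34, adjusted p = 0.00129) in 6 of 6 tumours. NK cells held 113 to 253 CPM, below Gzmb+ Cd8+ T cells by a log2 difference of -2.96 (SE 0.16, adjusted p = 4.31e-10) in 5 of 5 tumours.

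Over all T cells, Cxcr6 was 729 CPM in E and 567 in EM3, 473 in EM1 and 452 in EM2, 455 in M and 114 in the parental line. The parental tumour was the lowest and E the highest, a 5.96-fold range on the CPM plus 10 scale, where 13.3% of 5605 T cell genes ranged at least 2-fold. The Gzmb+ and Lef1+ Cd8+ classes together made up 36 of the 804 T cells of the parental tumour and 756 of the 1804 of E. This leaves out the class labelled Mki67+ Cd8/Cd4, at 13 and 84 cells. It also leaves out any CD8 T cells in the class labelled Cd44- Cd4+, at 541 and 406 cells, which carried CD8 marker RNA. Within classes the range was 1.82-fold in Gzmb+ Cd8+ (5 tumours), 2.80-fold in Lef1+ Cd8+, 3.62-fold in Cd44+ Cd4+ and 2.10-fold in Foxp3+ Cd4+ T cells. In the class labelled Cd44- Cd4+ it was 4.91-fold. The part of the makeup in the range of all T cells was not tested. In the Total libraries, T and NK cells held 58.7% of Cxcr6 UMIs in the parental tumour and 84.7% to 95.2% in the other 5. Cxcr6 also passed in DC against macrophages (2.77, SE 0.26, adjusted p = 8.65e-06), as did Cxcr3 (3.43, SE 0.42, adjusted p = 5.78e-05). The levels there were 5.996 to 21.4 CPM for Cxcr6, or 2.93% to 5.25% of the T cell level, beside T cell markers at 2.28% to 5.78% of that level. Cxcr3 in DC was 15.8, 10.3, 4.34, 15.0, 3.68 and 0 CPM, or 15.2%, 9.15%, 3.55%, 6.66%, 1.39% and 0% of the T cell level, above the range of the T cell markers in E, EM1 and EM3. In fibroblasts with endothelial cells and in macrophages, Cxcr6 passed against tumour cells (3.14, SE 0.46, adjusted p = 0.000332 and 1.13, SE 0.29, adjusted p = 0.00502, or 0.180 without the tumour block), at 0.496% to 6.04% of the T and NK cell level in fibroblasts, where T cell markers stood at 2.42% to 17.7%. Endothelial cells held 0 (M) to 54.4 CPM (E) of Cxcr6 and macrophages of the Total libraries 0.843 (parental) to 13.7 CPM (E). T and NK cells of E held 735 CPM. T cell markers are given for fibroblasts only and do not cover endothelial cells or macrophages. The part of T cell RNA in these low levels was not tested.

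Detection of the 2 receptors in the same cell was counted in each CD8 class. In Lef1+ Cd8+ T cells, 7.14% to 19.8% had UMIs of both, 14.6% to 40.3% of Cxcr3 alone and 7.46% to 22.6% of Cxcr6 alone. In Gzmb+ Cd8+ T cells of E and EM3, 86.6% and 78.5% had Cxcr6 alone and 1.43% and 1.61% had both. In the same class of M, 12.7% had both, 17.5% Cxcr3 alone and 44.4% Cxcr6 alone. With medians of 1134 to 2211 UMIs per cell in the 2 CD8 classes, a missing UMI does not show that a gene was off.

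**Figure D4:**
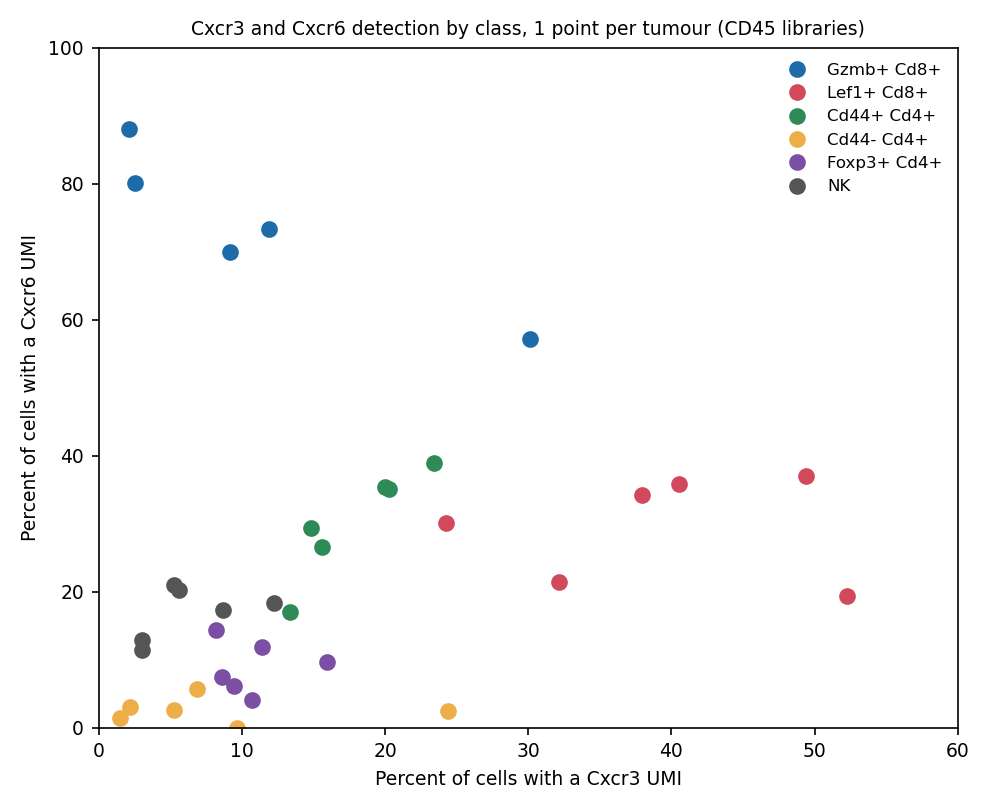
Percent of cells with a Cxcr6 UMI against percent with a Cxcr3 UMI in 6 lymphocyte classes (colours) of the CD45 libraries, 1 point per tumour with at least 10 cells. Gzmb+ Cd8+ T cells lie at 57.1% to 88.1% for Cxcr6 and 2.14% to 30.2% for Cxcr3, and Lef1+ Cd8+ T cells at 19.4% to 37% and 24.3% to 52.2%.

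The genes most alike were taken as those with the highest Pearson r of log2(CPM + 10) over 77 sums of 17 classes and 6 tumours, among 8800 genes. All points share the libraries and their depth, and no p is given. Cxcl9 was most like Ccl8 (r = 0.84), a chemokine of macrophages, and Slamf8 (0.82), C6 (0.79), Vcam1 (0.78) and Cxcl16 (0.77). Cxcl16 was most like Psap (0.94), Aif1 (0.93), Dab2 (0.93), Pltp (0.92) and Ctss (0.92), of which Psap and Ctss encode lysosomal proteins. Cxcl10 had no close match, with Rin2 at 0.58 and Ifnar2 at 0.55, and its r with its neighbour Cxcl9 was 0.43. Cxcr3 was most like Chst2 (0.89), Cd28 (0.88), Spn (0.86), Rnf125 (0.85) and Trbc2 (0.84). Cxcr6 was most like Pdcd1 (0.91), the gene of the checkpoint receptor PD-1, followed by Thy1 (0.89), Cd96 (0.89), Rgs16 (0.89) and Stk39 (0.88). Cxcr3 and Cxcr6 had an r of 0.76 with each other.

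A list of 21 genes of the same pathways was read beside the 5, with other ligands, Cxcl16-cutting proteases, interferon gamma signalling and T cell regulators. The tables held 20 of them, all but Cxcl11, a further ligand of Cxcr3. The annotation of GRCm38 lists Cxcl11 as a polymorphic pseudogene, and its expression was not measured here. DC exceeded macrophages in 9 of the 18 tested and lay below in 5, a median log2 difference of 0.25 against -0.04 over all genes, of which 47.5% passed in either direction. Dpp4 (5.29, adjusted p = 8.13e-08), a protease that trims Cxcr3 ligands, and Jak2 (3.20, adjusted p = 3.05e-07), a kinase of the interferon gamma receptor, were higher in DC. Irf1 (1.03, adjusted p = 0.00043), a transcription factor of the interferon response, was also higher there. Pf4 (-1.88, adjusted p = 8.42e-05), another chemokine that binds Cxcr3, and the scavenger receptor Ackr3 (-2.38, adjusted p = 1.15e-05) were higher in macrophages. Macrophage Pf4 stood at 161 CPM in E and 348 in EM3, 280 in EM1 and 280 in EM2, 656 in M and 645 in the parental line, so that the 2 tumours lowest in Cxcl9 were highest in Pf4. Macrophage Irf1 was 39.0, 125, 85.4, 67.5, 45.2 and 26.9 CPM, highest in EM1.

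The same list was read in the T cell comparisons, beside the share of all genes that passed in either direction. Gzmb+ against Lef1+ Cd8+ T cells gave 1 gene higher and 5 lower of 17 tested, where 16.4% of all genes passed, with a median of -0.02 against -0.00 over all genes. Ifng, the gene of interferon gamma, was higher in the Gzmb+ class (1.45, SE 0.32, adjusted p = 0.00457), and Tbx21, a transcription factor that drives Cxcr3, did not pass (0.33, SE 0.15, adjusted p = 0.156). Lower there were Socs1 (-0.81), an inhibitor of cytokine signalling, Irf1 (-0.81), and the kinases Jak2 (-0.55) and Jak1 (-0.49). CD8 against CD4 T cells gave 4 higher and 4 lower of 19, where 19.2% of all genes passed, with a median of -0.12 against 0.00. Higher in CD8 T cells were Tbx21 (2.39, adjusted p = 2.09e-05), Eomes (2.46, adjusted p = 1.92e-05), a related factor, and Arrb2 (0.73), an arrestin that binds activated receptors. Ifngr2 (-2.27, adjusted p = 2.62e-05), a chain of the interferon gamma receptor, and Jak2 (-1.09) were lower.

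Among CD4 T cells, Cd44+ against the class labelled Cd44- Cd4+ gave 7 higher and 4 lower of 19, where 28.6% of all genes passed, with a median of 0.03 against -0.01. Ifng (3.79, adjusted p = 9.08e-08), Jak2 (1.81, adjusted p = 1.27e-15) and Tbx21 (1.65, adjusted p = 6.73e-07) were higher. Eomes (-2.29, adjusted p = 3.36e-06) and Ifngr2 (-1.37, adjusted p = 1.52e-09) were lower, so that Tbx21 and Eomes differed in opposite directions here. Foxp3+ against Cd44+ Cd4+ T cells gave 3 higher and 7 lower of 17, where 23.6% of all genes passed, with a median of -0.09 against -0.01. Tbx21 (-1.73, adjusted p = 4.59e-06) and Ifngr2 (-0.88) were lower and Adam17 (0.78, adjusted p = 2.58e-06) higher in Foxp3+ cells. NK against Gzmb+ Cd8+ T cells gave 8 higher and 1 lower of 16, where 23.0% of all genes passed, with a median of 0.37 against -0.01. Eomes (2.72, adjusted p = 1.38e-09), Ifng (1.35, adjusted p = 0.027), Nfkb1 (0.97) and Tbx21 (0.84) were higher in NK cells. Ifng in NK cells was 322 CPM in E and 7.53 in EM3, 558 in EM1 and 131 in EM2, 41.3 in M and 51.5 in the parental line. These values are given without intervals and rested on few cells. There were 89 NK cells in E and 69 in EM3, 132 in EM1 and 131 in EM2, 49 in M and 38 in the parental line.

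Of the list, 10 of 19 genes were higher in macrophages than in tumour cells and 7 lower, where 75.4% of all genes passed, with a median of 0.46 against -0.00. Pf4 (6.98, adjusted p = 3.08e-07), Arrb2 (4.19, adjusted p = 4.38e-08) and Ifngr1 (1.94, adjusted p = 1.32e-07), the other chain of the interferon gamma receptor, were higher in macrophages. In fibroblasts with endothelial cells 6 of 19 were higher than in tumour cells and 2 lower, below the 58.6% of all genes that passed, with a median of 0.18 against -0.10. Jak1 (1.18, adjusted p = 9.19e-06) and Ackr3 (1.08, adjusted p = 0.000453) were higher there.

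Source and receiver were set side by side over the 6 tumours in 9 relations, of which none passed. Macrophage Cxcl9 and the share of CD8 T cells in the CD45 library had r = 0.73 (exact permutation p = 0.117, adjusted p = 0.284) and rho = 0.77 (exact permutation p = 0.103, adjusted p = 0.463). The shares were 7.12% in E and 7.52% in EM3, 8.49% in EM1 and 3.70% in EM2, 1.73% in M and 0.536% in the parental line. Without M and the parental tumour, the 2 farthest from the median of Cxcl9, r was -0.25 and rho 0.40, so the r rested on those tumours. Without M alone or the parental tumour alone r was 0.64 and 0.61, and without EM2 alone it was 0.94 (exact permutation p = 0.025, adjusted p = 0.225). For CD4 T cells r was 0.72 (exact permutation p = 0.108, adjusted p = 0.284), with rho = 0.77 (exact permutation p = 0.103, adjusted p = 0.463), and 0.94 without the same 2 tumours. CD4 T cells include the class labelled Cd44- Cd4+, which also carried CD8 marker RNA. That class made up 1436 of 2076 CD4 T cells in EM1, 864 of 1385 in EM2 and 541 of 746 in the parental tumour. In E, EM3 and M it made up 406 of 946, 62 of 848 and 41 of 517. Any CD8 T cells in this class count in the CD4 share and not in the CD8 share. In the Total libraries, where both shares are that of T and NK cells, r was 0.65 (exact permutation p = 0.161, adjusted p = 0.483). With 1 value per barcode set the 2 r values were 0.85 and 0.77 over 4 points. Within sets no correlation could be had, since each holds at most 2 tumours: EM1 exceeded EM2 in Cxcl9 and in both shares, while EM3 exceeded E in Cxcl9 and in the CD8 share but lay below it in the CD4 share.

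Receptor levels of T cells were set against ligand levels of macrophages. For Cxcl9 and T cell Cxcr3 r was -0.15 (exact permutation p = 0.762, adjusted p = 0.928) and rho -0.09 (exact permutation p = 0.919, adjusted p = 0.919), and for Cxcl16 and T cell Cxcr6 r was 0.06 (exact permutation p = 0.908, adjusted p = 0.928) and rho -0.14 (exact permutation p = 0.803, adjusted p = 0.903). Without the 2 farthest tumours these r were -0.40 and 0.35. Macrophage Cxcl9 and the Ifng of T and NK cells had r = 0.30 (exact permutation p = 0.539, adjusted p = 0.808) and rho = 0.31 (exact permutation p = 0.564, adjusted p = 0.903), and r was 0.03 without the 2 farthest tumours. The Total libraries gave an r of 0.80 (exact permutation p = 0.0569, adjusted p = 0.483), with rho = 0.49. For Cxcl10, r was 0.34 with the CD8 share (exact permutation p = 0.5, adjusted p = 0.808, rho 0.49) and 0.69 with the CD4 share (exact permutation p = 0.126, adjusted p = 0.284, rho 0.20), and for Cxcl16 -0.06 (exact permutation p = 0.928, adjusted p = 0.928, rho 0.26) and 0.71 (exact permutation p = 0.110, adjusted p = 0.284, rho 0.60). Without the 2 farthest tumours these 4 were -0.92, 0.31, -0.09 and 0.43. From the Total libraries, r was 0.13 for Cxcl10 and 0.14 for Cxcl16 with the share of T and NK cells, and with 1 tumour left out the r with the CD4 share was 0.12 (without EM1) to 0.91 (without M) for Cxcl10 and 0.53 (without EM1) to 0.91 (without M) for Cxcl16. Granulocytes made up 11.9% (EM2) to 50.6% (M) of the cells of a CD45 library. With shares taken of the other cells, Cxcl9 had an r of 0.62 with the CD8 share (rho 0.66) and 0.55 with the CD4 share (rho 0.49). Cxcl10 then had an r of 0.81 and Cxcl16 of 0.80 with the CD4 share (exact permutation p = 0.0458 and adjusted p = 0.206 for each), and none of the 9 relations passed the adjustment.

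**Figure D5:**
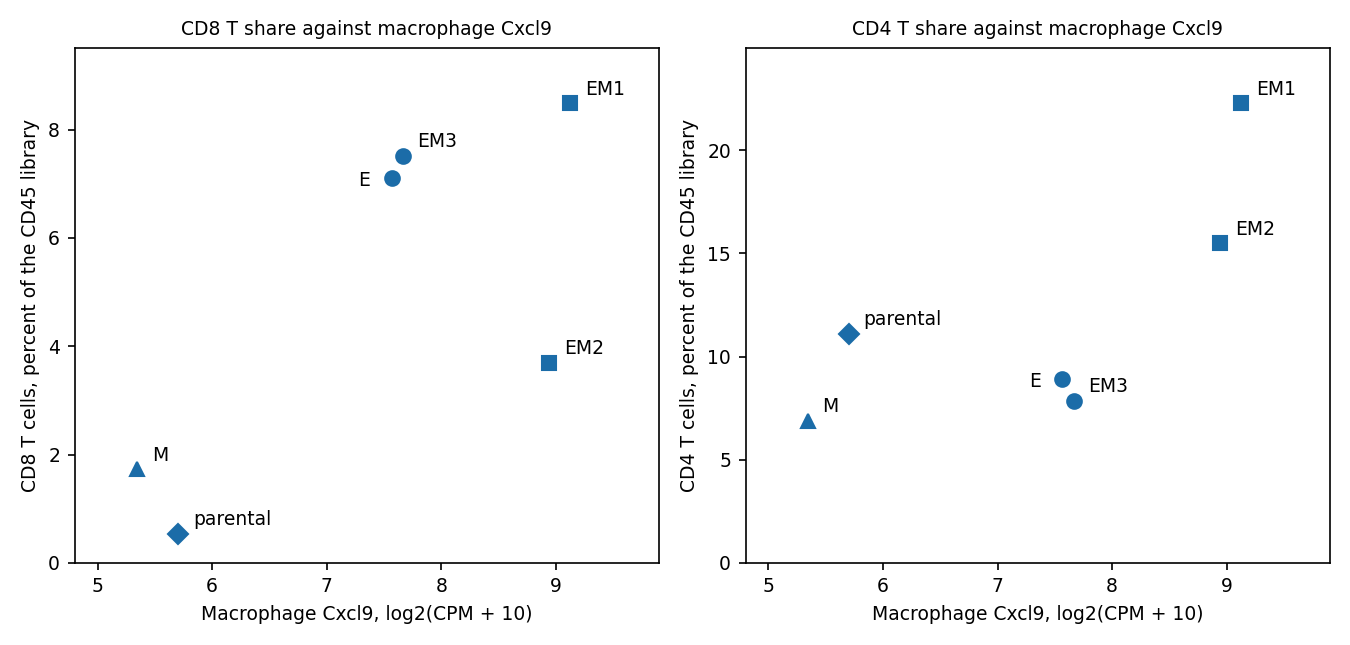
Share of CD8 T cells (left) and CD4 T cells (right) in the CD45 library, in percent, against macrophage Cxcl9 as log2(CPM + 10), 1 point per tumour, with 1 marker shape per barcode set. EM1 is highest on both axes in both panels, and M and the parental tumour, at 1.73% and 0.536% CD8 T cells, lie lowest in Cxcl9. CD4 T cells include the class labelled Cd44- Cd4+, which also carried CD8 marker RNA.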

How the data were processed

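Gene counts per cell were deposited by the authors as whole-number UMI counts, 1 table per library, aligned to mm10 with Cell Ranger per the submitters' processing notes. Deposited cell tables gave the authors' classes, the mitochondrial percent and the mitochondrial fraction of each cell. Per the labels' protocols, cells were fixed with a fixed-RNA sample kit and libraries made with 3′ reagent kits, and which chemistry gave the counts is not settled by these sources. The authors' cell filters differed, with the fewest genes in a cell at 200 to 650. Doublets were called with a Scrublet-like score written in Python 3.11.15 at 1 limit of 0.275 for all libraries and left out (2.10% of cells).

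UMIs were summed per class and tumour and given as CPM with exact Poisson 95% intervals, and shares of cells with exact Clopper-Pearson 95% intervals. Intervals cover counting error only. Classes were compared with edgeR 4.0.16 (R 4.3.3; TMM, filterByExpr, quasi-likelihood test, Benjamini-Hochberg over all genes, 0.05), with the tumour as a block because both classes come from the same tumour, and classes under 10 cells left out. Code was tested on simulated data. Relations used exact permutation tests over 6 tumours. DESeq2 1.42.0, no low-count filter, no block, doublets kept, cells of at least 650 genes, other pseudocounts and thinning depths, Total libraries and leave-one-out were alternatives. The 5 genes and all lists were chosen with earlier results of these data known. Genes named beside them have at least 50 CPM and are among the 5 largest differences of the list, or, where a result of the 5 turns on them, are Ifng, Irf1, Tbx21, Adam10 or Adam17. A gene of the list that this rule would name is not reported here. The comparisons within barcode sets, the limit of 1.5-fold there, the splits of DC by marker and the values without the top cell were chosen after seeing the data.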

Additional observations from a re-analysis of the deposited data

Results flagged for a closer look

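These values were listed because, in the same comparison of classes, some tumours differed one way and others the opposite way, each beyond both counting intervals. The difference between tumours was not tested, since each group has 1 tumour. A first listing without a minimum level held 36 values, and the minimum of 50 CPM in 1 of the classes compared was added after it was seen. Values are log2 ratios of CPM plus 10.

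Cxcl9 in DC against macrophages was -0.79 in E, -0.49 in EM1, -0.85 in EM2 and -0.35 in EM3, but 1.30 in M, where 1 cell gave 44.9% of the DC's UMIs. Cxcl10 in the same comparison was -1.87 in EM1 and 1.05 in EM2. Before the minimum of 50 CPM, DC lay above macrophages beyond both intervals in 4 of 6 tumours and below them in 1. The log2 difference over the 6 tumours was 0.53 (SE 0.45, adjusted p = 0.368, edgeR). With 1 tumour left out it was 0.31 to 1.04, with adjusted p from 0.0113 to 0.695. In EM2, 1 of the 329 DC gave 49 of their 96 UMIs and another gave 31. Without the first the DC level was 34.1 CPM in place of 69.4, against 28.3 CPM in macrophages. With both left out it would lie below macrophages, so the sign in EM2 rested on these 2 cells. Cxcl16 there was -0.18 in E and -0.32 in EM1, against 0.36 in EM3, 0.44 in the parental tumour and 0.17 in M.

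Cxcr3 in NK cells against Gzmb+ Cd8+ T cells was 1.63 in E and 1.74 in EM3, which form 1 barcode set, against -1.83 in EM2 and -2.17 in M. Cxcl10 in fibroblasts with endothelial cells against tumour cells was 0.87 in E and 0.76 in EM3, against -0.21 in EM2. In EM3, 1 of the 121 fibroblasts and endothelial cells gave 53.4% of their Cxcl10 UMIs, and without it the level was 28.2 CPM in place of 59.97, against 31.4 CPM in tumour cells.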

How the results depend on the processing

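With the tumour block left out of the model, the numbers of genes called were 4802 (DC and macrophages), 829 (Gzmb+ and Lef1+ Cd8+), 1584 (CD8 and CD4), 1118 (Foxp3+ and Cd44+), 1801 (Cd44+ and Cd44-), 883 (NK and Gzmb+), 9724 (macrophages and tumour cells) and 6208 (stromal and tumour cells), each within 1.5 times the count with the block. DESeq2 called 653 genes in place of 1037 between Gzmb+ and Lef1+ Cd8+ T cells and 942 in place of 1451 between Foxp3+ and Cd44+ Cd4+ T cells. Without the low-count filter 1627 genes in place of 974 were called between NK and Gzmb+ Cd8+ T cells. Leaving out 1 tumour gave 627 (without EM3) to 1202 genes between Gzmb+ and Lef1+ Cd8+ T cells, with 629 without E, and 938 (without E) to 1864 between CD8 and CD4 T cells, where 1696 were called. The cause of these moves was not tested.

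Among relations, r turned sign without the 2 farthest tumours for Cxcl9 with the CD8 share (-0.25) and Cxcl10 with the CD8 share (-0.92). In the Total libraries, where both shares are that of T and NK cells, it turned for Cxcl16 with the CD8 share (0.14) and for Cxcl9 with Cxcr3 (0.42). Leaving out 1 tumour gave -0.12 to 0.56 for Cxcl10 with the CD8 share, -0.52 to 0.38 for Cxcl16 with the CD8 share, -0.76 to 0.46 for Cxcl9 with Cxcr3, -0.65 to 0.37 for Cxcl16 with Cxcr6 and -0.16 to 0.64 for Cxcl9 with Ifng. None of these passed the test in the main setting.

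Differences that did not pass also turned sign. Cxcl16 in DC against macrophages was -0.027 without the filter and -0.037 to 0.13 with 1 tumour left out. Cxcl9 in CD8 against CD4 T cells was 0.11 without the block, 0.028 in cells of at least 650 genes and -0.26 to 0.10 with 1 tumour left out, and Cxcl10 there -0.83 to 0.10. Cxcl10 in stromal against tumour cells was -0.043 without the filter. Classes of few cells, such as the 8 Gzmb+ Cd8+ T cells of the parental tumour and the 37 to 147 endothelial cells, limit what the depth can show.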
